A study of Mus musculus with 8 samples.

Results

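The small leucine-rich proteoglycans examined here were the products of 10 genes, Dcn, Bgn, Fmod, Lum, Prelp, Omd, Ogn, Aspn, Chad and Epyc, out of 52636 genes quantified in mouse knee articular cartilage. They were chosen as a gene family by name, with earlier results of these data known, and were found by their symbols in the GENCODE annotation of the identifiers. Cartilage came from wild-type (WT) male C57BL/6 mice and from mice of the same strain that lack the osteoclast-associated receptor (Oscar-/-, labelled KO), and the labels give an age of 10 weeks. Knees underwent sham surgery or destabilization of the medial meniscus (DMM), an operation that models osteoarthritis (OA), and tissue was taken 2 or 4 weeks later. Each of the 8 combinations of genotype, surgery and week was sequenced as 1 library from the combined material of 10 articular cartilages, so that no condition had a second library. The labels name no tissue to which the loss of Oscar was restricted.

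Small leucine-rich proteoglycans are secreted proteins built from leucine-rich repeats, most of which carry chondroitin, dermatan or keratan sulfate chains. They bind to collagen fibrils and regulate fibril thickness and spacing, and several of them also hold growth factors of the TGF-β family in the matrix. In articular cartilage they coat the type II collagen network, and their loss from the matrix is a known feature of OA. Decorin (Dcn), biglycan (Bgn) and asporin (Aspn) form class I, fibromodulin (Fmod), lumican (Lum), prolargin (Prelp) and osteomodulin (Omd) class II, osteoglycin (Ogn) and epiphycan (Epyc) class III, and chondroadherin (Chad) class IV.

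Sequences upstream of 4 genes are shown because Aspn and Omd are neighbours whose response to DMM differed, Fmod was higher after DMM in WT cartilage and Chad, the most abundant, was not. They are the 250 bases before the RefSeq transcript start (GRCm38.p6), from 5′ to 3′ on the strand of the gene. Capitals mark matches, on either strand, to TATAAA (the box named after these letters), ACAANG (SOX family), TGTGGT (RUNX) or TGANTCA (AP-1). Aspn lies at chr13:49544193-49544442, plus strand, Omd at chr13:49582212-49582461, plus strand, Fmod at chr1:134037004-134037253, plus strand and Chad at chr11:94564797-94565046, plus strand.
Aspn: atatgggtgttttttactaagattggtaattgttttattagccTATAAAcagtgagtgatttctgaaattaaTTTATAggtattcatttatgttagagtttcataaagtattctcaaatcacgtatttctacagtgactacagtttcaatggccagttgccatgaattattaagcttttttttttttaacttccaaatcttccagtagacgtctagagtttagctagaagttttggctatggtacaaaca
Omd: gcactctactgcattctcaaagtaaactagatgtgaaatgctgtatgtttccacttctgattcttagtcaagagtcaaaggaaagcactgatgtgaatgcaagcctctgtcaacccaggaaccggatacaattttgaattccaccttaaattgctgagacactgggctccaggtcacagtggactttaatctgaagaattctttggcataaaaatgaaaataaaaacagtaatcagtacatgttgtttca
Fmod: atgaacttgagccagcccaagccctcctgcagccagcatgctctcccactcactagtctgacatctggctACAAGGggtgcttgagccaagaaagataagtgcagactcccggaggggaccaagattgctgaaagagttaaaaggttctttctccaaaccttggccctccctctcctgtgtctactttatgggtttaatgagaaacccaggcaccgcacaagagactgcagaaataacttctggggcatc
Chad: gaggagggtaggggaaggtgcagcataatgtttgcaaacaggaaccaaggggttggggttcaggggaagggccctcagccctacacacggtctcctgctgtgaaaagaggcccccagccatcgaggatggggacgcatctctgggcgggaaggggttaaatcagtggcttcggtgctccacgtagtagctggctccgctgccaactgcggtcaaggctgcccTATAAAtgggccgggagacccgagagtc

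The Aspn window held 2 TATAAA matches, the second on the opposite strand, and its GC content was 30.0%. The Chad window held 1 TATAAA match, which ran from 28 to 23 bases before the start, and Fmod held 1 ACAANG match. No match to these letters was found in the Omd window. Of the 10 genes 8 had an entry, and among these TATAAA occurred in Aspn, Ogn and Chad, ACAANG in Fmod, Ogn and Epyc (2 windows), and TGTGGT in Ogn. For Ogn and for 1 of the 2 Epyc windows, the bases after the start were not found in a GENCODE transcript of the gene. Of 32851 mouse promoter windows of the same length 12.4% held TATAAA, 36.3% ACAANG, 14.05% TGTGGT and 6.75% TGANTCA. The Ogn window held 2 TATAAA matches that overlapped each other. These matches describe letters and do not show that a factor binds.

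The libraries held between 13189181 and 18533609 expected counts. Oscar was listed at 1.25 to 4.21 TPM (transcript abundance per gene length and library) in the 4 WT libraries and at 0 in the 4 Oscar-/- libraries. The cartilage genes Col2a1 and Acan were at 59.5 to 209 TPM and at 19.3 to 68.9 TPM, whereas Matn1, a cartilage matrilin, reached only 0.44 TPM. Hemoglobin genes took 26.5% to 37.7% of TPM, and 9 osteoblast and osteocyte markers summed to 2024 to 4032 TPM, above the 194 to 572 TPM of 12 chondrocyte markers in every library. The tissue labelled as articular cartilage thus contained RNA of blood and bone, and in such bulk samples fewer cells of a type and less RNA per cell cannot be told apart. By the lane numbers in the names of the deposited tables, which the labels do not give, all 4 libraries of 2 weeks were in sequencing lane 5, the WT libraries of 4 weeks in lane 3 and the Oscar-/- libraries of 4 weeks in lane 1. On that basis each DMM library shared its lane with its sham library, while lane and week, and at 4 weeks lane and genotype, cannot be told apart. Tests used edgeR with TMM scaling, under which the median log2 change of the 12538 genes tested lay between -0.0187 and 0.00615 in all comparisons. On log2(TPM + 1) that median was 0.17 for DMM in WT, -0.08 for DMM in Oscar-/-, -0.26 for their difference and 0.23 for 4 against 2 weeks, so that changes in TPM are to be read against these shifts.

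Levels of the 10 genes differed widely. Chad had the highest mean at 559 TPM and Epyc the lowest at 0.56 TPM. Chad, which encodes a collagen- and integrin-binding protein of cartilage without a glycosaminoglycan chain, ranged from 315 to 1304 TPM. Dcn followed with a mean of 372 TPM (274 to 614) and Bgn with 235 TPM (167 to 310). Chad exceeded Dcn, Dcn exceeded Bgn and Bgn exceeded Lum in 8 of 8 libraries. Below them stood Lum at a mean of 78.5 TPM, Omd at 37.9 TPM, Fmod at 30.1 TPM, Prelp at 27.8 TPM, Aspn at 12.4 TPM and Ogn at 8.51 TPM. Neighbours in this lower order were not separated by library, since Lum exceeded Omd in 6 of 8 libraries, Omd exceeded Fmod in 5, Fmod exceeded Prelp in 4 and Aspn exceeded Ogn in 4. Epyc, an epiphyseal cartilage gene, had 8 to 21 counts in each library and stayed below the TPM of 1 required for a test, so that 9 of the 10 genes were tested.

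The 10 genes together summed to 1427 TPM in WT sham, 1387 TPM in WT DMM, 2475 TPM in Oscar-/- sham and 1113 TPM in Oscar-/- DMM cartilage at 2 weeks. At 4 weeks the sums were 976, 1309, 1295 and 911 TPM in the same order. Chad, Dcn and Bgn made up 87.6% to 90.0% of the sum in the 4 sham libraries and 77.8% to 84.1% in the 4 DMM libraries, and these ranges did not overlap. Chad accounted for 38.4% to 53.8% of the sum after sham surgery and for 28.5% to 34.6% after DMM. The share of Lum, a keratan sulfate proteoglycan also known from the cornea, was 2.49% to 4.65% after sham surgery and 6.94% to 11.0% after DMM.

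**Figure D1:**
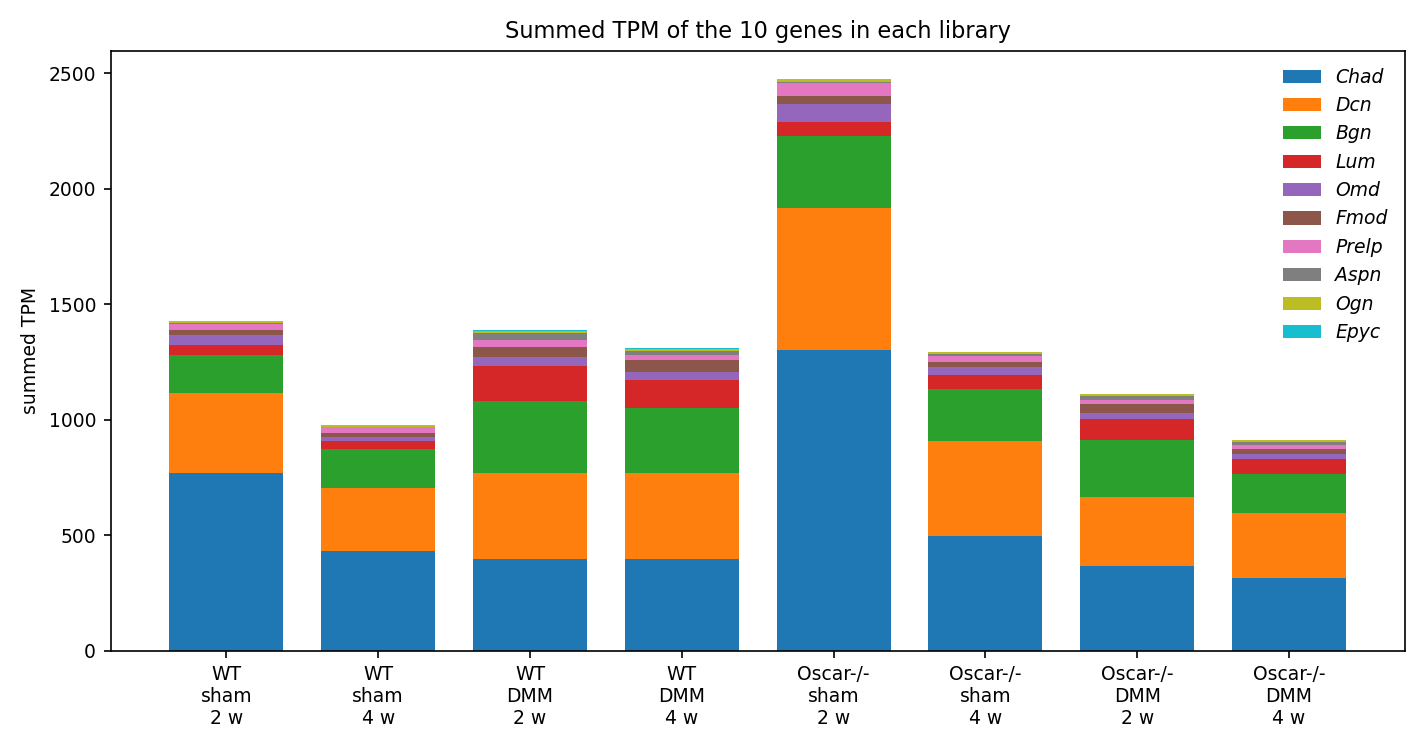
Summed TPM of the 10 small leucine-rich proteoglycan genes in each of the 8 libraries (1 bar per library, w = weeks), stacked by gene with Chad at the bottom. The Oscar-/- sham library of 2 weeks had the highest sum, 2475 TPM, of which Chad was the largest part.

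DMM surgery in WT cartilage was accompanied by higher levels of 4 of the 9 tested genes, Aspn, Lum, Fmod and Bgn, and by no call of a lower level. Of all 12538 genes tested 4.87% were called, 4.36% higher and 0.502% lower. The median log2 change was 0.495 over the 9 genes and -0.00607 over all genes tested. This comparison asked how the matrix genes of WT cartilage respond to joint destabilization.

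Aspn (ENSMUSG00000021388), a collagen- and TGF-β-binding protein that lacks a glycosaminoglycan chain, showed the largest difference among them. It was at 3.91 TPM (2 weeks) and 3.73 TPM (4 weeks) in WT sham cartilage and at 31.49 and 18.05 TPM after DMM. In Oscar-/- cartilage it was at 6.75 and 7.50 TPM after sham surgery and at 17.15 and 10.79 TPM after DMM. All 4 DMM libraries lay above all 4 sham libraries, and the share of all genes so separated was not computed. In WT the log2 change was 2.46 (SE 0.19), a 5.51-fold higher level, with an edgeR adjusted p of 9.27e-05.

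Lum (ENSMUSG00000036446) was at 41.69 and 33.26 TPM in WT sham cartilage at 2 and 4 weeks and at 153.03 and 121.55 TPM after DMM. In Oscar-/- cartilage it was at 61.55 and 60.19 TPM after sham surgery and at 93.58 and 63.27 TPM after DMM. In TPM the 2 WT DMM libraries were the highest of the 8 and the 2 WT sham libraries the lowest. On TMM counts the WT sham libraries were also the lowest. There the Oscar-/- DMM library of 2 weeks (272.8 CPM) lay slightly above the WT DMM library of 4 weeks (269.6). The log2 change in WT was 1.66 (SE 0.13), or 3.15-fold, with an edgeR adjusted p of 0.000101.

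Fmod (ENSMUSG00000041559), a keratan sulfate proteoglycan that regulates collagen cross-linking, was at 18.21 and 17.66 TPM in WT sham cartilage and at 44.27 and 49.32 TPM after DMM. In Oscar-/- cartilage it was at 36.06 and 19.83 TPM after sham surgery and at 35.83 and 19.40 TPM after DMM. The WT DMM libraries were again the highest, and in Oscar-/- cartilage the sham and DMM libraries of the same week differed by less than the weeks did (the sign of this DMM difference held in 12 of 16 alternatives). The log2 change in WT was 1.21 (SE 0.19), or 2.31-fold, with an edgeR adjusted p of 0.00434.

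Bgn (ENSMUSG00000031375), which carries chondroitin or dermatan sulfate chains and can act as a danger signal when released, was at 167.00 and 168.77 TPM in WT sham cartilage and at 308.91 and 280.27 TPM after DMM. In Oscar-/- cartilage it was at 309.69 and 227.02 TPM after sham surgery and at 246.26 and 172.08 TPM after DMM. In TPM the WT sham libraries were the lowest of the 8, but this order depended on scaling. On TMM counts the WT sham library of 2 weeks (474.4 CPM) lay above the Oscar-/- sham (452.5) and DMM (388.5) libraries of 4 weeks. The log2 change in WT was 0.57 (SE 0.10), or 1.49-fold, with an edgeR adjusted p of 0.0103. Lum and Aspn were called under all 16 alternatives, whereas without the WT DMM library of 4 weeks the adjusted p of Bgn was 0.163 and that of Fmod 0.0568.

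The other 5 tested genes did not pass in WT. Ogn (6.34 and 5.19 TPM after sham surgery, 10.09 and 8.99 TPM after DMM) had a log2 difference of 0.49 (SE 0.16) and an edgeR adjusted p of 0.0999. Ogn encodes a keratan sulfate proteoglycan first found in bone. Dcn, the most abundant of the chain-bearing members, was at 347.10 and 274.45 TPM after sham surgery and at 375.50 and 376.39 TPM after DMM in WT, with a log2 difference of 0.07 (SE 0.16) whose sign held in 14 of 16 alternatives. At 2 weeks its sign depended on scaling, with a log2 ratio of 0.11 on TPM and -0.25 on TMM counts. Omd, an acidic mineral-binding member of bone, had a log2 difference of 0.06 (SE 0.28, sign kept in 14 of 16 alternatives) and Prelp, which binds heparan sulfate, one of -0.20 (SE 0.19, kept in 13). Chad was at 768.55 and 431.18 TPM after sham surgery and at 395.09 and 395.03 TPM after DMM, a log2 difference of -0.74 (SE 0.28) with an adjusted p of 0.162.

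**Figure D2:**
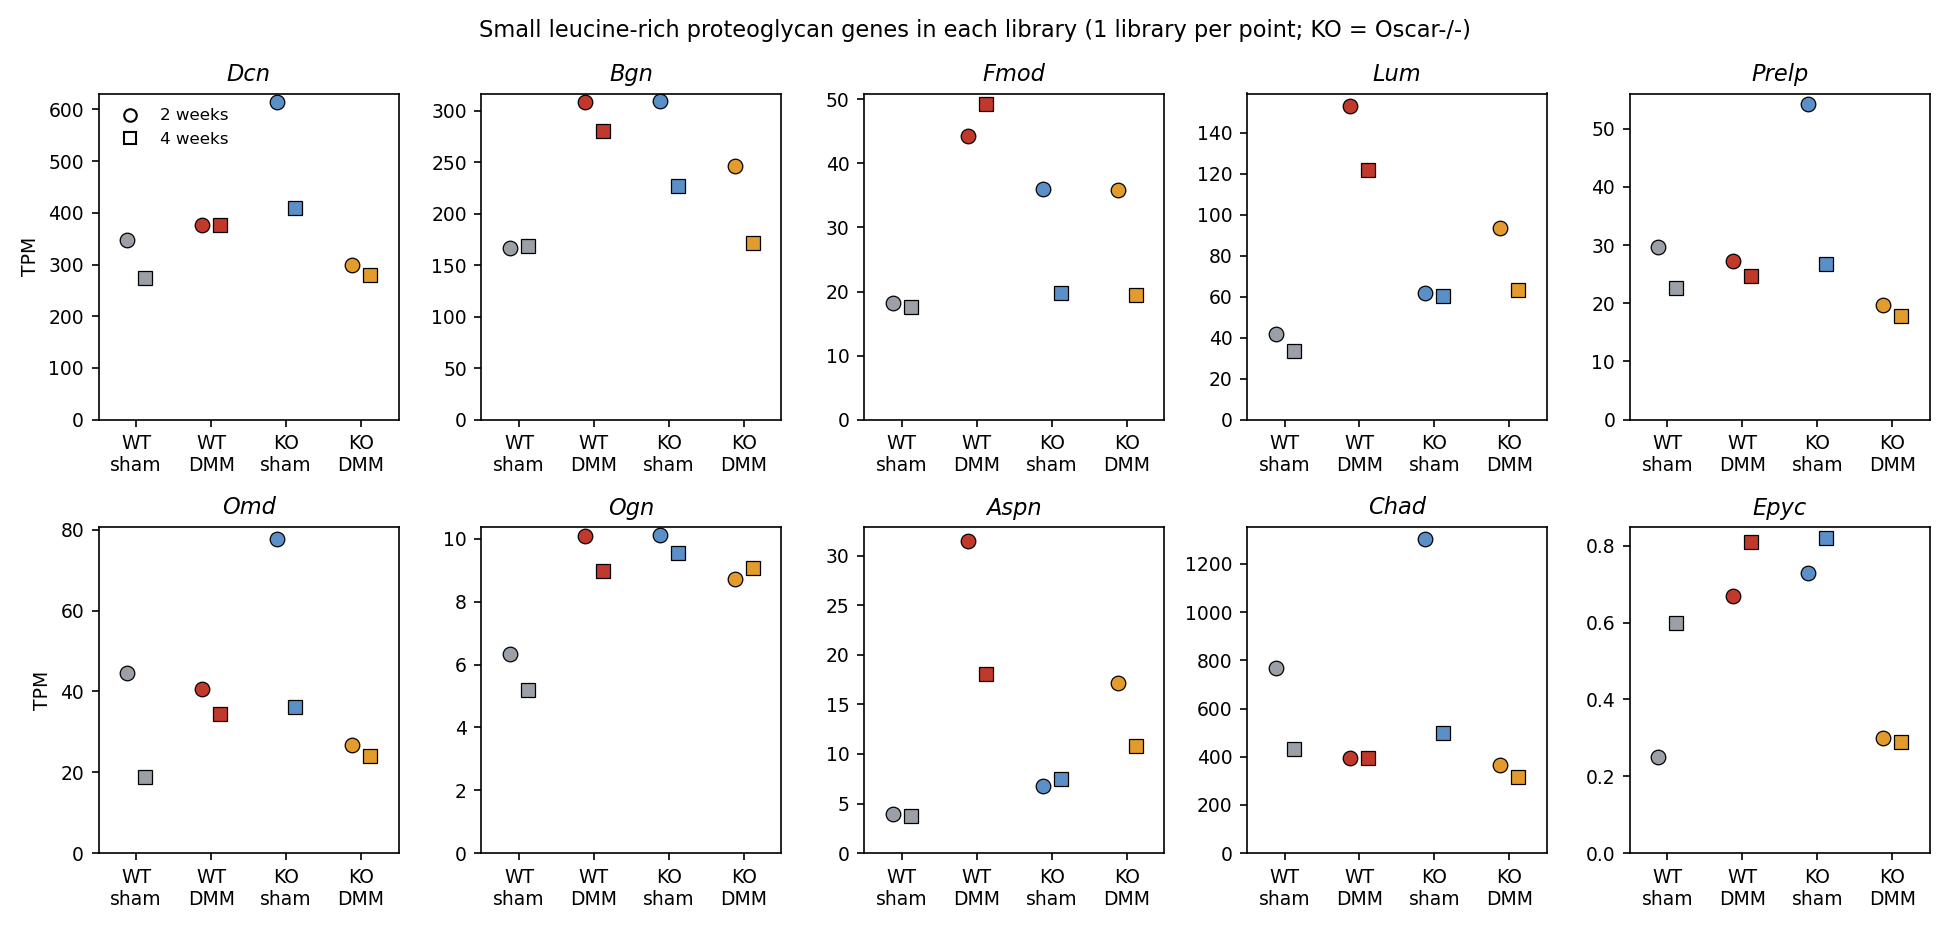
TPM (linear axes from 0) of each of the 10 genes in each library, by genotype and surgery, with circles for 2 weeks and squares for 4 weeks. For Aspn and Lum the WT DMM libraries were the highest (18.05 and 31.49 TPM, 121.55 and 153.03 TPM), while Chad, Dcn, Prelp and Omd were highest in the Oscar-/- sham library of 2 weeks. Bgn (309.69 TPM) and Ogn (10.13 TPM) were also highest in the Oscar-/- sham library of 2 weeks, barely above the WT DMM library of 2 weeks (308.91 and 10.09 TPM).

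In Oscar-/- cartilage none of the 9 genes passed the edgeR threshold after DMM, where 0.112% of all genes tested did (0.00798% higher and 0.104% lower). An unadjusted edgeR p under 0.05 was seen for 1459 of all 12538 genes tested and for 7 of the 9. DESeq2 called 1 of them, Aspn, higher, and limma on log2(TPM + 1) called Dcn, Prelp, Omd and Chad lower. Aspn had the largest positive difference, 1.03 on the log2 scale (SE 0.18, edgeR adjusted p 0.0601), and was higher after DMM at both weeks. Lum had 0.43 (SE 0.13, adjusted p 0.216), Fmod 0.08 (SE 0.19), Ogn -0.04 (SE 0.15) and Bgn -0.23 (SE 0.10). In TPM every tested gene but Aspn and Lum was lower after DMM at both weeks. These included Fmod (0.994-fold at 2 weeks and 0.978-fold at 4 weeks), whose edgeR value was above 0. Chad was at 1304.08 and 497.70 TPM after sham surgery and at 365.49 and 315.20 TPM after DMM, a log2 difference of -1.16 (SE 0.28, adjusted p 0.127). Prelp was at 54.24 and 26.84 TPM and at 19.69 and 17.75 TPM after DMM, a difference of -0.93 (SE 0.19, adjusted p 0.0800). Omd was at 77.75 and 36.16 TPM and at 26.70 and 23.95 TPM after DMM, a difference of -0.95 (SE 0.28, adjusted p 0.214). Dcn was at 613.73 and 409.06 TPM and at 298.95 and 279.35 TPM after DMM, a difference of -0.69 (SE 0.16, adjusted p 0.114). For these 4 genes both sham libraries lay above both DMM libraries. This sets only 2 libraries against 2, and the share of all genes so separated was not computed. Nor are the 4 genes separate observations, as they correlated at Pearson r of 0.876 to 0.984 over the 8 libraries. Their sham libraries included that of 2 weeks, in which the chondrocyte marker list was also highest at 572 TPM, and without it the 4 log2 differences ranged from -0.71 (Omd) to -0.52 (Dcn). Without the WT sham library of either week, or without the Oscar-/- DMM library of 4 weeks, 5 genes were called (Aspn higher, Dcn, Prelp, Omd and Chad lower), and without the Oscar-/- sham library of 4 weeks 2 were, Aspn and Prelp.

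Whether the response to DMM differed between genotypes was tested by the interaction, for which values below 0 mean a log2 change that was smaller, or more negative, in Oscar-/- than in WT cartilage. It was called for 4 of the 9 genes, all below 0, while 5.24% of all genes tested were called, 3.83% below 0 and 1.41% above. Aspn differed by -1.44 (SE 0.26, edgeR adjusted p 0.0194), Lum by -1.23 (SE 0.18, 0.00863), Fmod by -1.13 (SE 0.26, 0.0366) and Bgn by -0.80 (SE 0.15, 0.0194). The remaining values were -1.02 (SE 0.39) for Omd, -0.76 (SE 0.23) for Dcn, -0.73 (SE 0.27) for Prelp, -0.53 (SE 0.22) for Ogn and -0.43 (SE 0.39) for Chad. The median was -0.804 over the 9 genes and -0.00801 over all genes tested. On TPM and on TMM counts the difference was below 0 at both weeks for each of the 9, and for Epyc on TPM.

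Within 2 weeks, where all 4 libraries shared a lane, the difference on TMM counts was -1.25 for Aspn, -0.86 for Lum, -0.88 for Fmod and -0.73 for Bgn. At 4 weeks it was -1.55, -1.60, -1.32 and -0.87 in the same order. The calls rested on few libraries. Without the WT DMM library of 4 weeks none of the 9 was called, with edgeR adjusted p of 0.06695 for Lum, 0.0571 for Aspn, 0.107 for Bgn and 0.1204 for Fmod. Without that of 2 weeks Fmod alone was called, and Lum was at 0.0546, Bgn at 0.0517 and Aspn at 0.1045. Lum and Aspn were called without the Oscar-/- sham library of 2 weeks (Bgn 0.125, Fmod 0.223), and Lum alone without that of 4 weeks (Aspn 0.0582, Bgn 0.0584, Fmod 0.0547). Fmod was also lost without the WT sham library of 2 weeks (0.0654) and without the Oscar-/- DMM library of 4 weeks (0.0760), and Bgn without the latter (0.06165). The call of Fmod was also lost with DESeq2 (0.111) and with edgeR's own filter over genes of all types (0.0612), while Lum, Aspn and Bgn were called under both. With each pair of sham and DMM libraries of 1 genotype and week as a block, the same 4 genes were called (adjusted p 0.0106 to 0.0179). The sign stayed below 0 in all 16 alternatives for each gene but Chad, which was below 0 in 14 (0.12 without the Oscar-/- sham library of 2 weeks and 0.07 without the WT DMM library of 4 weeks).

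**Figure D3:**
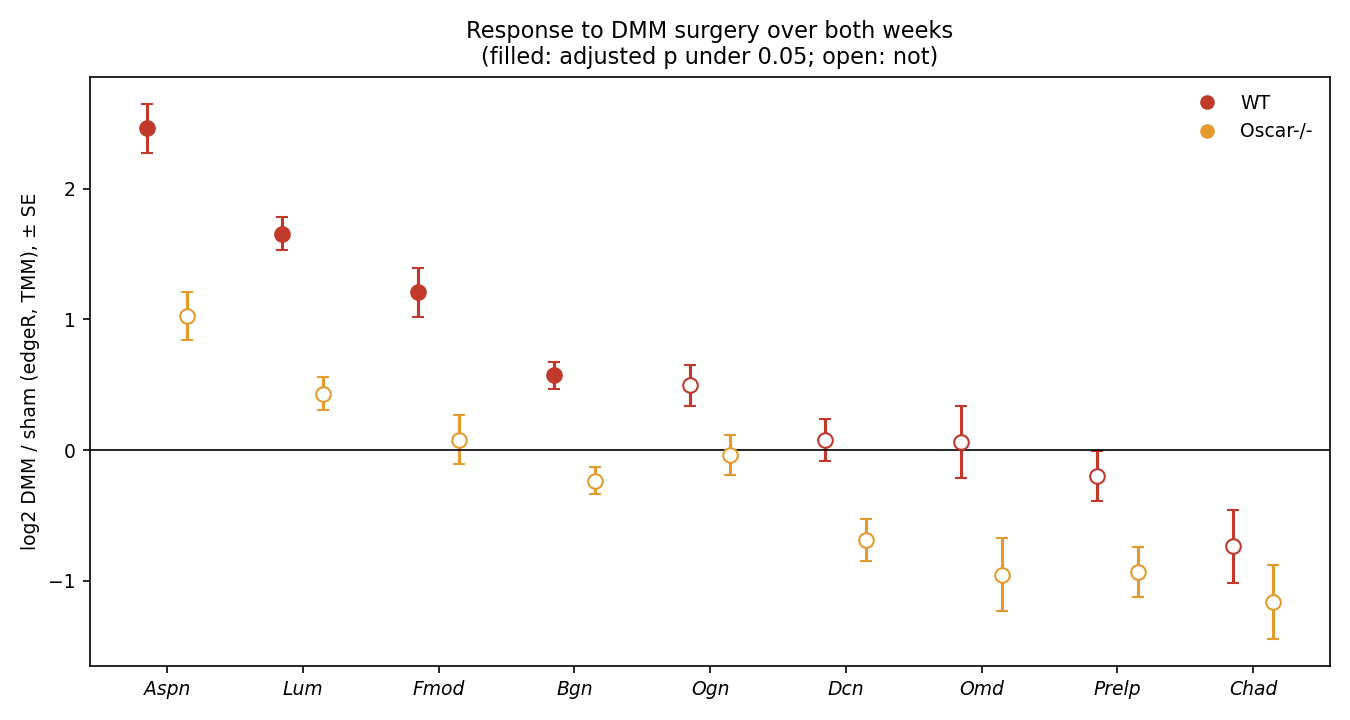
log2 DMM/sham from edgeR with TMM scaling for the 9 tested genes, WT in red and Oscar-/- in orange, with bars of 1 SE and filled points where the adjusted p was under 0.05. Each Oscar-/- point lies below its WT point, with a difference of -1.44 for Aspn and -0.43 for Chad, whose difference was below 0 in 14 of 16 alternatives.

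For DMM in WT and in the interaction, every called fibroblast, endothelial, bone and chondrocyte marker had the direction of Aspn, Lum, Fmod and Bgn. No blood or muscle marker was called in these directions. Pi16 (log2 -0.18), Sost (-0.38) and Mepe (-0.30) of the fibroblast and bone lists were below 0 in WT without a call. For DMM in Oscar-/- the median log2 change was 0.015 for the fibroblast, 0.138 for the endothelial and -0.363 for the bone list. Of 7 fibroblast and synovium markers 4 were called higher after DMM in WT and 4 were called below 0 in the interaction. Their sum was 72.2 to 106 TPM in WT sham, 238 to 298 TPM in WT DMM, 128 TPM in both Oscar-/- sham and 133 to 217 TPM in Oscar-/- DMM libraries. All 4 endothelial markers were called higher in WT and below 0 in the interaction, with sums of 23.3 to 30.7 TPM, 52.6 to 53.5 TPM, 35.8 to 38.2 TPM and 37.7 to 41.0 TPM in the same order. Of 9 osteoblast and osteocyte markers 4 were called higher in WT and 4 below 0 in the interaction, with sums of 2024 to 2294 TPM, 3708 to 4032 TPM, 3003 to 3677 TPM and 2618 to 2797 TPM. Chondrocyte markers, of which 11 of 12 were tested, gave 2 higher calls in WT (Col11a1 and Col11a2) and 3 below 0 in the interaction, with sums of 256 to 326 TPM, 296 to 420 TPM, 323 to 572 TPM and 194 to 316 TPM. Of the tendon and ligament markers Scx and Thbs4 were called in neither comparison, and Thbs4 had an edgeR unadjusted p of 0.0478 in WT (log2 -0.47). Tnmd passed the TPM filter only through DMM libraries (1.62 to 2.35 TPM, at most 0.56 TPM after sham surgery), and its tests are not counted. Erythroid genes gave 1 of 7 above 0 in the interaction, neutrophil genes 1 of 7 lower in WT and skeletal muscle genes 1 of 5 lower in WT. The median log2 change of these 3 lists was -0.30, -0.35 and -1.50 for DMM in WT and 0.65, 0.25 and 0.89 in the interaction, and that of the chondrocyte list was -0.01 and -0.83. No marker was listed at 0 in any library, and the lowest was Matn1 at 0.04 TPM. The part of these other cells in the levels of Aspn, Lum, Fmod and Bgn was not tested.

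Genotype alone was compared after sham surgery. Bgn and Lum were higher in Oscar-/- than in WT sham cartilage, 2 of the 9 genes, where 2.18% of all genes tested were called, 1.99% higher and 0.183% lower. Bgn differed by 0.51 on the log2 scale (SE 0.10, edgeR adjusted p 0.0353) and Lum by 0.60 (SE 0.13, 0.0413). In TPM the ratio of Oscar-/- to WT was 1.85 at 2 weeks and 1.35 at 4 weeks for Bgn, and 1.48 and 1.81 for Lum. The 2-week ratios were within 1 lane and the 4-week ratios between lanes. The other 7 genes had positive differences from 0.40 (Chad, SE 0.28) to 0.80 (Aspn, SE 0.21, adjusted p 0.0747), and the median of the 9 was 0.572 against 0.00182 over all genes. Both calls depended on single libraries. Bgn was lost without 5 of the 8 libraries in turn (adjusted p up to 0.391 without the Oscar-/- sham library of 2 weeks) and Lum without 5 (up to 0.314 without that of 4 weeks). Without either Oscar-/- DMM library Dcn, Ogn and Aspn were called as well, and without the WT sham library of 2 weeks Dcn, Lum, Omd and Ogn were. Markers called higher in Oscar-/- sham cartilage were 3 of 7 for fibroblast and synovium, 3 of 11 for chondrocyte, 2 of 9 for osteoblast and osteocyte and 2 of 4 for endothelium, and their part was not tested.

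After DMM surgery no member was called between genotypes by edgeR, where 0.0479% of all genes tested were (0.00798% higher and 0.0399% lower). An unadjusted edgeR p under 0.05 was seen for 1589 of all 12538 genes tested and for 4 of the 9. DESeq2 and limma on log2(TPM + 1) each called 1, Lum, lower in Oscar-/-. The log2 differences were -0.63 (SE 0.12, edgeR adjusted p 0.231) for Lum, -0.64 (SE 0.18) for Fmod, -0.63 (SE 0.16) for Aspn and -0.295 (SE 0.10) for Bgn. In TPM the ratio of Oscar-/- to WT after DMM was 0.612 and 0.521 for Lum at 2 and 4 weeks, 0.545 and 0.598 for Aspn, and 0.809 and 0.393 for Fmod. Dcn, Prelp, Omd, Ogn and Chad had differences between -0.34 and 0.10. This comparison and the one after sham surgery use the same libraries as the responses to DMM and add no independent evidence to them.

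Most of these genes lie in clusters of the family. On chromosome 13 Aspn (49544443 to 49567565), Omd (49582462 to 49592822, ENSMUSG00000048368) and Ogn (49608046 to 49624501, ENSMUSG00000021390) follow each other on the plus strand, 14.9 and 15.2 kb apart, and the related Ecm2 lies 11.7 kb before Aspn. On chromosome 10 Dcn (97479609 to 97518143, ENSMUSG00000019929) and Lum (97565128 to 97572703) are 47.0 kb apart, followed by Kera and by Epyc (97644068 to 97682454, ENSMUSG00000019936). On chromosome 1 Prelp (133910304 to 133921414, minus strand, ENSMUSG00000041577) is 115.8 kb from Fmod (134037254 to 134048277). Chad (94565047 to 94569127, ENSMUSG00000039084) is on chromosome 11 and Bgn (73483602 to 73495933) on X. Positions are those of GENCODE M21 on GRCm38. Aspn, Omd and Ogn lie within Cenpp, Chad overlaps Acsf2, Prelp overlaps Gm15851 and Epyc overlaps Gm10754, each on the opposite strand, and since the strand setting of the counting is not given in the sources used here, reads of such partners cannot be told apart.

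Ratios between adjacent genes, chosen after the levels had been seen, are given as a description. The ratio of Aspn to Omd in TPM was 0.0868 to 0.207 in the 4 sham libraries and 0.451 to 0.776 in the 4 DMM libraries, a 4.40-fold higher mean that was seen in 4 of 4 pairs of libraries. Prelp to Fmod was 1.28 to 1.63 after sham surgery and 0.501 to 0.915 after DMM, lower in 4 of 4 pairs. Dcn to Lum was 6.80 to 9.97 and 2.45 to 4.42, also lower in 4 of 4 pairs. For these 3 ratios, each of a gene called higher after DMM in WT and a neighbour that was not, the sham and DMM libraries did not overlap. The share of all gene pairs so separated was not computed. In Oscar-/- cartilage at 2 and 4 weeks, Fmod was 0.994- and 0.978-fold after DMM and Prelp 0.363- and 0.661-fold. Lum was 1.52- and 1.051-fold there and Dcn 0.487- and 0.683-fold, while Aspn was 2.541- and 1.439-fold and Omd 0.343- and 0.662-fold. Omd to Ogn overlapped (3.615 to 7.675 against 2.64 to 4.02). A ratio within a library does not depend on the scaling between libraries.

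**Figure D4:**
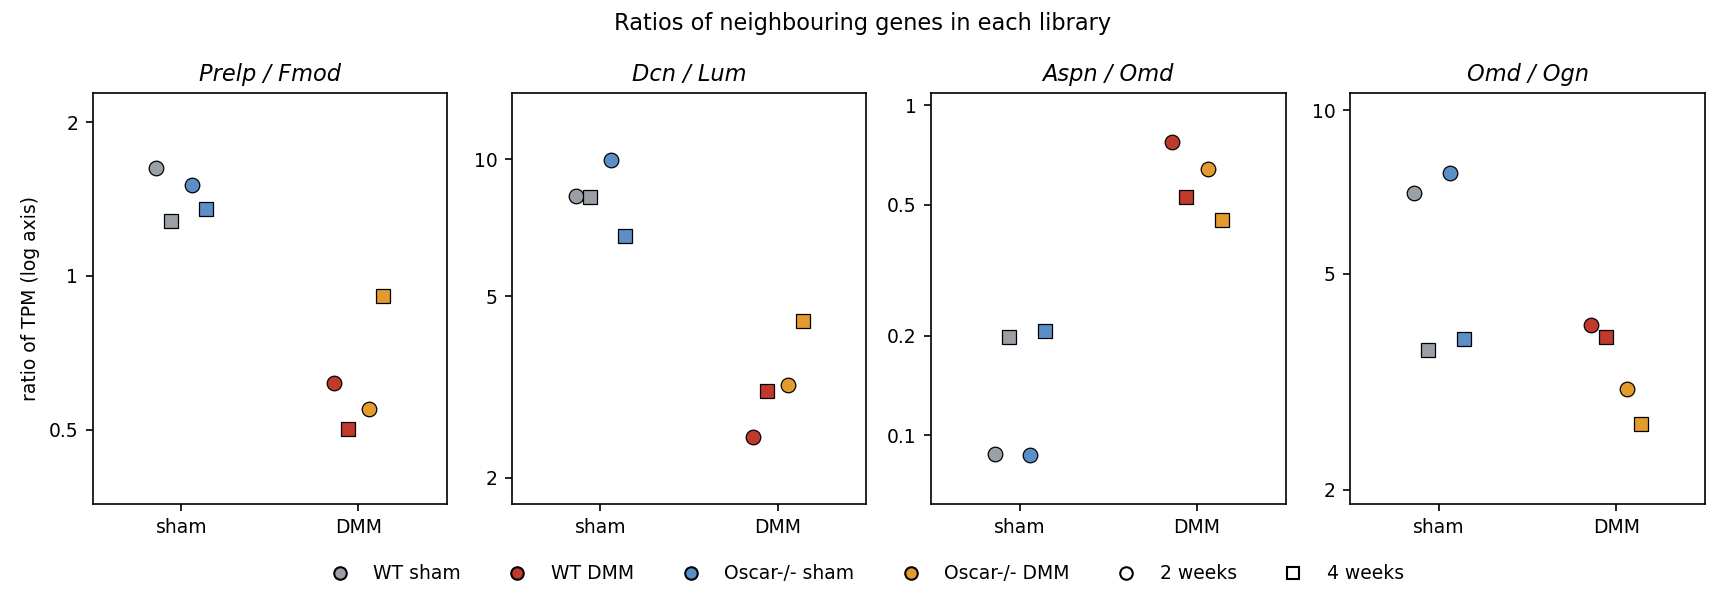
Ratio of TPM (log axes) between neighbouring genes in each library, sham on the left and DMM on the right of each panel, coloured by genotype and surgery, with circles for 2 weeks and squares for 4 weeks. Aspn/Omd was higher in all 4 DMM libraries (0.451 to 0.776) than in the sham libraries, Prelp/Fmod and Dcn/Lum were lower, and Omd/Ogn overlapped.

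Averaged over both genotypes, a comparison added after the data had been seen, DMM was accompanied by higher Aspn (log2 1.74, SE 0.13, edgeR adjusted p 0.000157), Lum (1.04, SE 0.09, 0.000406) and Fmod (0.64, SE 0.13, 0.0344). Chad was lower (-0.95, SE 0.20, 0.0391). Of all genes tested 1.93% were called, 1.5% higher and 0.431% lower. Aspn, Lum and Fmod were also called in the interaction, so that their averages combine unlike responses. For Fmod the log2 change was 1.21 in WT and 0.08 in Oscar-/- cartilage, and the average describes neither genotype. Chad was lower after DMM in 4 of 4 pairs of libraries, but the call was lost without each of the 4 libraries of 2 weeks in turn (adjusted p 0.0626 to 0.332) and without the WT DMM library of 4 weeks (0.0527). Fmod was lost without 5 libraries in turn (adjusted p up to 0.149 without the Oscar-/- sham library of 4 weeks), and both were lost with DESeq2 (0.147 for Fmod and 0.208 for Chad) and with edgeR's own filter (0.0608 and 0.0681). With the block of genotype and week Chad was at 0.0624. Aspn and Lum were called in all 16 alternatives. In the same comparison 3 of 7 fibroblast and synovium and 3 of 4 endothelial markers were called higher. The cartilage gene Hapln1 and the tendon marker Thbs4 were called lower, and the part of all these markers was not tested. The tests of Tnmd, which passed the TPM filter only through DMM libraries, are not counted.

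Between the weeks all 9 tested genes were lower at 4 than at 2 weeks by edgeR, where 22.1% of all genes tested were called, 10.9% lower and 11.2% higher. The log2 changes ran from -0.40 for Ogn (SE 0.11, adjusted p 0.0244) to -0.96 for Omd (SE 0.20, 0.00782), with a median of -0.696 against -0.0187 over all genes. On TMM counts each of the 9 was lower in 4 of 4 pairs, and on TPM Lum, Prelp and Omd were lower in 4 of 4 and the other 6 in 3 of 4 pairs. Chad was at 1739 and 661 CPM in WT sham at 2 and 4 weeks, at 2424 and 798 in Oscar-/- sham cartilage, at 697 and 584 in WT DMM and at 705 and 559 in Oscar-/- DMM cartilage. Omd was at 96.0 and 27.3 CPM at 2 and 4 weeks in WT sham, at 134.9 and 54.6 in Oscar-/- sham, at 67.1 and 48.3 in WT DMM and at 48.0 and 40.4 in Oscar-/- DMM cartilage. For both genes the sham pairs differed more than the DMM pairs, a contrast that was not tested. Without a term for the genotype by surgery interaction only Prelp (adjusted p 0.0390) and Chad were called. Without either Oscar-/- sham library Dcn, Omd, Ogn and Chad were lost (adjusted p 0.0517 to 0.0728). DESeq2 lost Omd (0.0501) and Chad (0.0600), and Ogn was lost without 6 of the 8 libraries in turn. On log2(TPM + 1) limma lost Ogn (0.508) and Aspn (0.0798). In TPM, levels in WT DMM cartilage were close at both weeks for Dcn and Chad. Dcn was at 375.50 and 376.39 TPM and Chad at 395.09 and 395.03 TPM. Chondrocyte markers were called lower at 4 weeks for 5 of 11, fibroblast and synovium markers for 4 of 7 (2 higher) osteoblast and osteocyte markers for 4 of 9 (1 higher), endothelial markers for 2 of 4 and erythroid genes for 2 of 7, and their part was not tested.

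Of 8 further genes of the family 6 passed the filter. Kera, which encodes the corneal keratan sulfate proteoglycan keratocan, had 4 and 5 counts in the WT sham and 63 and 14 counts in the WT DMM libraries at 2 and 4 weeks. In Oscar-/- cartilage it had 4 and 2 counts after sham surgery and 37 and 9 after DMM. It passed the TPM filter only through the DMM libraries of 2 weeks (1.48 and 1.01 TPM), the libraries in which it was high, and its tests are therefore not counted. Of the other 5 genes 2 were called higher after DMM in WT by edgeR, where 4.36% of all genes tested were. None was called in Oscar-/- cartilage, where 2 of the 5 and 1459 of all 12538 genes tested had an unadjusted edgeR p under 0.05. Podnl1, a podocan-like protein, differed in WT by 0.81 (SE 0.13, edgeR adjusted p 0.00463) and Tsku, the secreted signalling inhibitor tsukushi, by 0.71 (SE 0.16, 0.0250). In the interaction Podnl1 was called at -0.78 (SE 0.18, 0.0366). Ecm2, the neighbour of Aspn, had log2 differences of -0.15 (SE 0.21) in WT and -1.02 (SE 0.21, adjusted p 0.0814) in Oscar-/- cartilage and was lower at 4 weeks (-0.79, SE 0.15, 0.0049). Chadl, a chondroadherin-like gene, was also called lower at 4 weeks (-0.68), Podn was called in no comparison, and Optc and Nyx stayed at or below 0.20 TPM.

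Of 16 genes for enzymes that build or cleave these proteoglycans 15 were tested. Of these 1 was called higher after DMM in WT and 2 below 0 in the interaction, where 4.36% and 3.83% of all genes tested were. None was called in Oscar-/- (0.112% of all genes tested), where 4 of the 15 and 1459 of all 12538 genes had an unadjusted edgeR p under 0.05. The median log2 change of the 15 enzyme genes after DMM was 0.0635 in WT. Bmp1, the procollagen C-proteinase that also trims the propeptides of several family members, was at 10.18 and 12.65 TPM in WT sham, 20.34 and 23.39 TPM in WT DMM, 15.86 and 19.09 TPM in Oscar-/- sham and 15.26 and 14.31 TPM in Oscar-/- DMM cartilage. It was 1.66-fold higher after DMM in WT (log2 0.73, SE 0.09, edgeR adjusted p 0.00155), differed by -0.87 in the interaction (SE 0.13, 0.0105) and was higher in Oscar-/- than in WT sham cartilage (0.51, SE 0.10, 0.0269). Chst1, a keratan sulfate sulfotransferase, differed by -1.06 in the interaction (SE 0.25, 0.0375), with 3.83 and 4.8 TPM in WT sham, 4.33 and 5.38 TPM in WT DMM, 7.38 and 5.29 TPM in Oscar-/- sham and 2.70 and 2.81 TPM in Oscar-/- DMM cartilage. Among the other enzymes with the lowest interaction p the values were -0.57 for Xylt1 (adjusted p 0.0568), which starts chondroitin and dermatan sulfate chains, -0.49 for Dse and -0.60 for Dsel, the dermatan sulfate epimerases. Chst5 had -0.52, Tpst1 0.23 and Tpst2 0.13. At 4 weeks Tpst2, a tyrosine sulfotransferase, was higher (0.325, adjusted p 0.00504) and Dsel lower (-0.52, 0.0121) than at 2 weeks.

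Across the 8 libraries most of the tested genes fell along 2 profiles, given as descriptions over libraries that share lanes and total depth. On log2 TMM CPM Dcn, Prelp, Omd and Chad correlated with each other at Pearson r of 0.876 to 0.984, and Fmod, Lum and Aspn at 0.774 to 0.969. Between Chad and Aspn r was -0.376 and between Dcn and Aspn 0.017, while Bgn stood between both with r of 0.735 to Dcn and 0.902 to Fmod. Ogn fell in neither group, with r of 0.663 to Dcn, 0.329 to Chad, 0.699 to Lum and 0.62 to Aspn. Among 10286 well-counted genes the most similar to Aspn were Col18a1, the basement membrane collagen that yields endostatin (r = 0.989), Postn, which encodes the matrix protein periostin (0.984), and Sgcb (0.980). For Lum they were Lbh (0.986), Clec11a (0.984) and Antxr1 (0.983), for Fmod Tsc2 (0.986), As3mt (0.982) and Cdc42ep1 (0.981), and for Bgn Loxl2, a collagen cross-linking enzyme (0.992), Parva (0.983) and Anxa5 (0.980). For Chad they were Ucma (0.985) and Cilp2 (0.985), both cartilage matrix genes, and Stk32b (0.983). Prelp was closest to its relative Ecm2 (0.995), Anxa8 (0.987) and Crispld1 (0.984), Dcn to Fibin (0.995), Scara3 (0.987) and Enpp1 (0.987), and Omd to Col10a1, the collagen of hypertrophic cartilage (0.987), Itm2c (0.987) and Fibin (0.985). Ogn was closest to Il1r1 (0.988), Rab34 (0.976) and Tmem176b (0.966). These values are given without a test.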

How the data were processed

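Articular cartilage RNA of 8 conditions was sequenced on stranded mRNA libraries. The authors trimmed reads with BBDuk, aligned them to GRCm38 with STAR 2.6.0a and quantified genes with RSEM 1.2.17. The submitters' processing notes also name FastQC 0.11.8 and a human build, while the identifiers are those of mouse. The deposited expected counts are RSEM estimates that divide shared reads (non-whole for Prelp) and were rounded here. The deposited TPM sum to 1000000 per library, and a change in abundant genes such as those of hemoglobin therefore moves every other value. Total expected counts ranged from 13189181 to 18533609.

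Symbols, types and positions came from GENCODE M21 (52403 of 52636 identifiers matched). Protein-coding genes with a TPM over 1 in at least 1 library (12538) were fitted with edgeR 4.0.16 quasi-likelihood tests on TMM-scaled counts, with 4 groups of genotype and surgery plus week, in all 8 libraries (3 residual degrees of freedom), and Benjamini-Hochberg adjustment over all genes at a threshold of 0.05. No condition has a second library, so p-values measure only the spread left after these terms, which may be technical. Ratios of TPM are given as values. Promoters were RefSeq entries for 8 of the 10 genes.

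All 10 genes and 8 relatives were named, with the 8 enzymes of lowest interaction p and, for each tested gene, the 3 genes of highest Pearson r at a mean of at least 100 counts (prior count 2). The members and lists were chosen with earlier results of these data known. Alternatives were other scaling factors, filters and tools (DESeq2 1.42.0, limma 3.58.1 with pseudocounts of 1 and 0.1), an additive model, leaving out each library and, added after seeing the data, a block for each pair of libraries of 1 genotype and week (2 residual degrees of freedom). Software comprised R 4.3.3, scipy 1.17.1, numpy 2.4.6, pandas 2.3.3, matplotlib 3.10.9 and Python 3.11.15.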

Additional observations from a re-analysis of the deposited data

Results flagged for a closer look

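The response to DMM differed between Oscar-/- and WT cartilage, by the edgeR test of the difference itself, for 4 small leucine-rich proteoglycan genes and 3 related genes. The log2 difference (Oscar-/- minus WT) was -1.44 for Aspn, -1.23 for Lum, -1.13 for Fmod and -0.80 for Bgn. It was -0.78 for the podocan-like gene Podnl1, -1.06 for the sulfotransferase gene Chst1 and -0.87 for the proteinase gene Bmp1. The call of Fmod was lost with DESeq2 (adjusted p 0.111) and with edgeR's own filter over genes of all types (0.0612). As given above, the calls of Aspn, Lum, Fmod and Bgn all rested on few libraries. Without the WT DMM library of 4 weeks their log2 differences were -1.66, -1.22, -0.70 and -0.67. For Podnl1, Chst1 and Bmp1 no values under other settings are given here. All 7 were below 0, in a comparison in which 480 genes were called below 0 and 177 above. With 1 library per condition no library could be compared with others of its own group.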

How the results depend on the processing

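Over 990 recomputed values of single genes (9 genes, 7 comparisons), 824 stayed on their side of the threshold, of which 799 kept and 25 changed their sign, all 25 without a call. Another 73 lost the call, 93 gained one and no called value reversed. The range of genes called without each library in turn was 2 to 5 for DMM in WT, 0 to 5 for DMM in Oscar-/-, 0 to 6 for the interaction, 0 to 5 for genotype after sham surgery, 0 to 1 for genotype after DMM, 5 to 9 for week and 2 to 7 for DMM over both genotypes.

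Without a filter on low values 6 of the 9 were called for DMM in Oscar-/-, 7 for the interaction, 9 for genotype after sham surgery, 3 for genotype after DMM and 7 for DMM over both genotypes. DESeq2 called 1 for DMM in Oscar-/-, 1 for genotype after DMM and 2 for DMM over both genotypes. limma on log2(TPM + 1) and on log2(TPM + 0.1) each called 4 for DMM in Oscar-/-, 7 for the interaction and 1 for genotype after DMM. Library totals as scaling called 1 for genotype after sham surgery, and edgeR's filter over genes of all types 0 there and 2 for DMM over both genotypes. The additive model called 2 for week. The cause was not tested. Over all genes, the count called without the filter was 1429 against 610 for DMM in WT, 541 against 14 for DMM in Oscar-/-, 1710 against 657 for the interaction, 992 against 273 and 288 against 6 for genotype after sham surgery and DMM, and 749 against 242 for DMM over both genotypes, with 913 higher and 516 lower in WT. DESeq2 called 73 for DMM in Oscar-/-, 55 for genotype after DMM and 1639 for week. edgeR's filter gave 1, 388, 144 and 2 for DMM in Oscar-/-, the interaction and genotype after sham surgery and DMM, limma on log2(TPM + 1) 94, 350 and 97 for the first 3 of these, and library totals 3, 139 and 3 for DMM in Oscar-/- and for genotype after sham surgery and DMM. In the interaction library totals called 14 above and 565 below 0. The additive model called 995 for week. limma on log2(TPM + 1) called 4342 against 2775 for week, of which 4198 were higher, and library totals called 2397 higher and 352 lower there. No paired analysis was possible by replicate number, because the labels give none, but sham and DMM libraries pair by genotype and week. With each pair of sham and DMM libraries of 1 genotype and week as a block, chosen after seeing the data, 4 genes were called for DMM in WT, 0 for DMM in Oscar-/-, 4 for the interaction and 3 for DMM over both genotypes, where Chad was lost (0.0624), and 1 gene of the whole table was called for DMM in Oscar-/- against 14.

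Each p-value rests on 3 residual degrees of freedom (2 without a library), and the lone library left in a condition is then assumed to vary like the others. Intervals from counting would cover counting error only. Epyc, with 8 to 21 counts per library, was too shallow to test.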
